A study of Rattus norvegicus with 12 samples.

Results

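The transcripts of 10 rat heat shock proteins were followed in left ventricular tissue of 12 rats: Hspa1b, Hspa8, Hsph1, Dnajb1, Hsp90aa1, Hspb1, Hspb6, Hspb7, Cryab and Hspd1. Genes were taken by symbol from the table of 34700 genes. The table lists 9 of them under these symbols, and Hspa1b was found as LOC108348108, the symbol that carries its NCBI gene number. Of the 10 proteins, 9 work mainly in the cytosol, whereas Hspd1 is the chaperonin HSP60 of the mitochondrial matrix, so the set is not purely cytosolic.

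Male Sprague-Dawley rats, 8 weeks old at surgery, formed 4 groups of 3. Sham rats had a suture passed round the left anterior descending coronary artery without closing it. In the other groups this artery was ligated to cause infarction and heart failure: the HF group (labelled HF+Sed) stayed sedentary, the HFE group (HF+Exe) was put through 8 weeks of treadmill running (5 weekly sessions, 60 min each), and the BAIBA group (HF+Med) stayed sedentary and received β-aminoisobutyric acid, a metabolite released by working muscle, by gavage at 75 mg/kg a day for 8 weeks. The methods divide rats into exercise studies and BAIBA studies, each with Sham and HF groups. Water by gavage is given for the Sham and HF rats of the BAIBA studies, and no gavage is described for HFE rats. Which of these studies the sequenced Sham and HF rats came from is not given. Hearts were collected 12 weeks after surgery, and each library is 1 rat. The labels give the tissue as heart, and the study's methods as the anterior left ventricular wall. The zone around the infarct is given for HF and BAIBA rats in one place and for BAIBA rats alone in the methods, and for HFE rats no zone is named.

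Heat shock proteins are chaperones that hold, refold or hand on unfolded proteins. HSP70 proteins (Hspa8, Hspa1b) bind exposed peptide stretches in an ATP cycle that is started by J-domain proteins such as Dnajb1 and reset by exchange factors such as Hsph1 (HSP110), and HSP90 proteins finish the folding of kinases and steroid receptors. Small heat shock proteins (Hspb1, Hspb6, Hspb7, Cryab) need no ATP, keep unfolding proteins soluble, and are abundant in heart muscle, where they sit on desmin, filamin and the Z-disc. Heat shock factor 1 drives many of these genes through heat shock elements, inverted repeats of GAA and TTC.

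Promoter sequences from RefSeq (build GRCr8) were available for 7 of the 10 genes and were searched over the 250 bases before the annotated start for GAANNTTC and TTCNNGAA, each of which reads the same on both strands. At least 1 such site lay upstream of 6 of the 7, and 13.5% of 33469 rat promoters of the same length held one. A run of 3 alternating units, in which both motifs overlap, lay upstream of Hspa8, Hsph1 and Hspd1 and in 0.663% of all promoters. The 150 bases before the start are shown for 6 genes, 5′ to 3′ on the strand of the gene, with the 2-unit sites in capitals, to set the HSP70 system beside the small heat shock proteins of muscle.
Hspa8, chr8:50080364-50080513, plus strand: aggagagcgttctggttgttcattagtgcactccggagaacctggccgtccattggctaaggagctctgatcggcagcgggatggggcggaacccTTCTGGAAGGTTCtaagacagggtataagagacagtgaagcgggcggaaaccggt
Hsph1, chr12:10427218-10427367, plus strand: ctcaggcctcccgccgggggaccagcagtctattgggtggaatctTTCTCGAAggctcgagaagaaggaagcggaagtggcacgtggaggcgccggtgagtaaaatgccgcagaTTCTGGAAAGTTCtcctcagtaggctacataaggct
Dnajb1, chr19:41431142-41431291, minus strand: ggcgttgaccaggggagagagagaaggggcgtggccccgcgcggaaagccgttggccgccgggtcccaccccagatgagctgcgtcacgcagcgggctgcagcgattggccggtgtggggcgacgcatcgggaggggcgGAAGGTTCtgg
Hspb1, chr12:26432302-26432451, minus strand: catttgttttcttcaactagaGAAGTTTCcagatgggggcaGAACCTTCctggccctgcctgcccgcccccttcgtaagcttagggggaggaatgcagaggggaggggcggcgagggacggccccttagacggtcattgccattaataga
Hspb6, chr1:94934222-94934371, plus strand: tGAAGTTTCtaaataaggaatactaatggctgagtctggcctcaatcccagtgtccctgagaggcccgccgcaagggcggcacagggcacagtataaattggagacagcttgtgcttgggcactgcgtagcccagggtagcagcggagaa
Hspb7, chr5:159010609-159010758, plus strand: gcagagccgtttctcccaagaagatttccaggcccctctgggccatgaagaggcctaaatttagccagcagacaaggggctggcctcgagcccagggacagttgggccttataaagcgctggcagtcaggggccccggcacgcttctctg
In Hspa8 the capitals are a 3-unit run at 55 to 43 bases before the start, and in Hsph1 a 3-unit run lies at 36 to 24 bases before the start beside a 2-unit site. Dnajb1 had 1 site, at 11 to 4 bases before the start. Hspb1 had 2 separate GAANNTTC sites, Hspb6 had 1 in this stretch and a TTCNNGAA farther upstream, and Hspb7 had none. A TATAAA box, found in 8.06% of all promoters, lay upstream of Hspb6 and Hspb7 and of none of the other 5 genes searched. A letter match does not show that a factor binds.

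Per unit of transcript length, 3 of the 4 small heat shock proteins (Cryab, Hspb6 and Hspb7) were the most abundant of the set. FPKM (fragments scaled by gene length and library size, as deposited) averaged 1404 ± 135 for Cryab, 871 ± 119 for Hspb6 and 533 ± 63.4 for Hspb7 (SD, n = 12 rats). Hspa8, the constitutive HSP70, followed at 280 ± 34.0 FPKM, Hspd1 at 192 ± 10.2 FPKM and Hspb1 (HSP27) at 99.5 ± 18.5 FPKM. Hsph1 was lower at 16.03 ± 2.40 FPKM, Dnajb1 at 9.07 ± 1.72 FPKM and Hsp90aa1 at 6.33 ± 3.48 FPKM. Hspa1b, the stress-inducible HSP70, came last at 0.396 ± 0.181 FPKM. This order held between neighbours in all 12 rats and their FPKM ranges did not overlap, with 1 exception: Dnajb1 and Hsp90aa1 overlapped, and Dnajb1 was the higher in 7 of 12 rats. The second cytosolic HSP90, Hsp90ab1, reached 395 ± 25.9 FPKM, so Hsp90aa1 was the minor form by these values. RefSeq names 16 pseudogenes for Hsp90aa1 and 20 for Hspd1, and how reads shared with such copies were handled is not given.

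**Figure D1:**
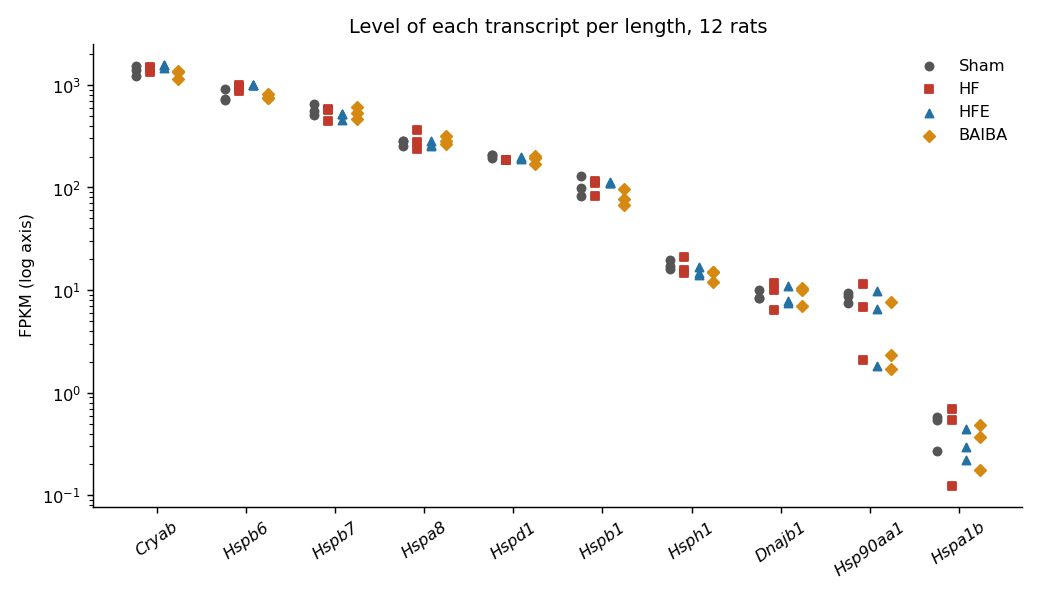
FPKM of the 10 heat shock transcripts on a log axis, ordered by mean, with 1 point per rat and colour for the group. Cryab lies highest at 1128 to 1559 FPKM and Hspa1b lowest at 0.124 to 0.702 FPKM, and Hsp90aa1 is spread from 1.69 to 11.5 FPKM.

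Together the 10 genes took 0.445% to 0.565% of the counts of a rat. Libraries held 14812541 to 19732588 gene counts. Cardiomyocyte markers summed to 48050 to 58690 CPM (counts scaled to library size, with TMM factors) over the 12 rats, with all 10 markers above 0 in every rat. In bulk tissue a smaller share of a cell type and less RNA per cell cannot be told apart.

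No heat shock gene differed between any 2 groups under the thresholds the study used, an adjusted p under 0.05 with a log2 fold change over 1 in size. All 10 genes passed the filter on low counts, and none was called in any of the 6 comparisons by edgeR's quasi-likelihood test with Benjamini-Hochberg adjustment, nor by DESeq2 at the same thresholds. Over all genes tested, 0% were called in HF against Sham, 0% in HFE against Sham, 0.0402% in BAIBA against Sham, 0% in HFE against HF, 0% in BAIBA against HF and 0.0808% in BAIBA against HFE. At an unadjusted p under 0.05 the members numbered 0, 2, 1, 0, 2 and 3 of 10 in the same order, beside 6.0%, 11.2%, 7.41%, 7.62%, 5.55% and 9.57% of all genes. Members whose rats did not overlap between the groups numbered 0, 2, 1, 1, 2 and 3, beside 11.7%, 17.8%, 12.7%, 14.3%, 11.4% and 15.6% of all genes. In the exact two-sided permutation test of 3 rats against 3 the smallest p possible is 0.1, so it cannot pass 0.05.

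A test for any difference among the 4 groups, with 3 degrees of freedom, gave no call either. Its lowest value among the members was for Hspb6, with an unadjusted p of 0.00278 and an adjusted p of 0.325 by edgeR's quasi-likelihood test, followed by Cryab at an unadjusted p of 0.042. By that test 0% of all genes were called and 9.71% had an unadjusted p under 0.05. DESeq2's likelihood ratio test called Hspb6 (adjusted p = 0.00448) and no other member, and 1.35% of all genes.

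**Figure D2:**
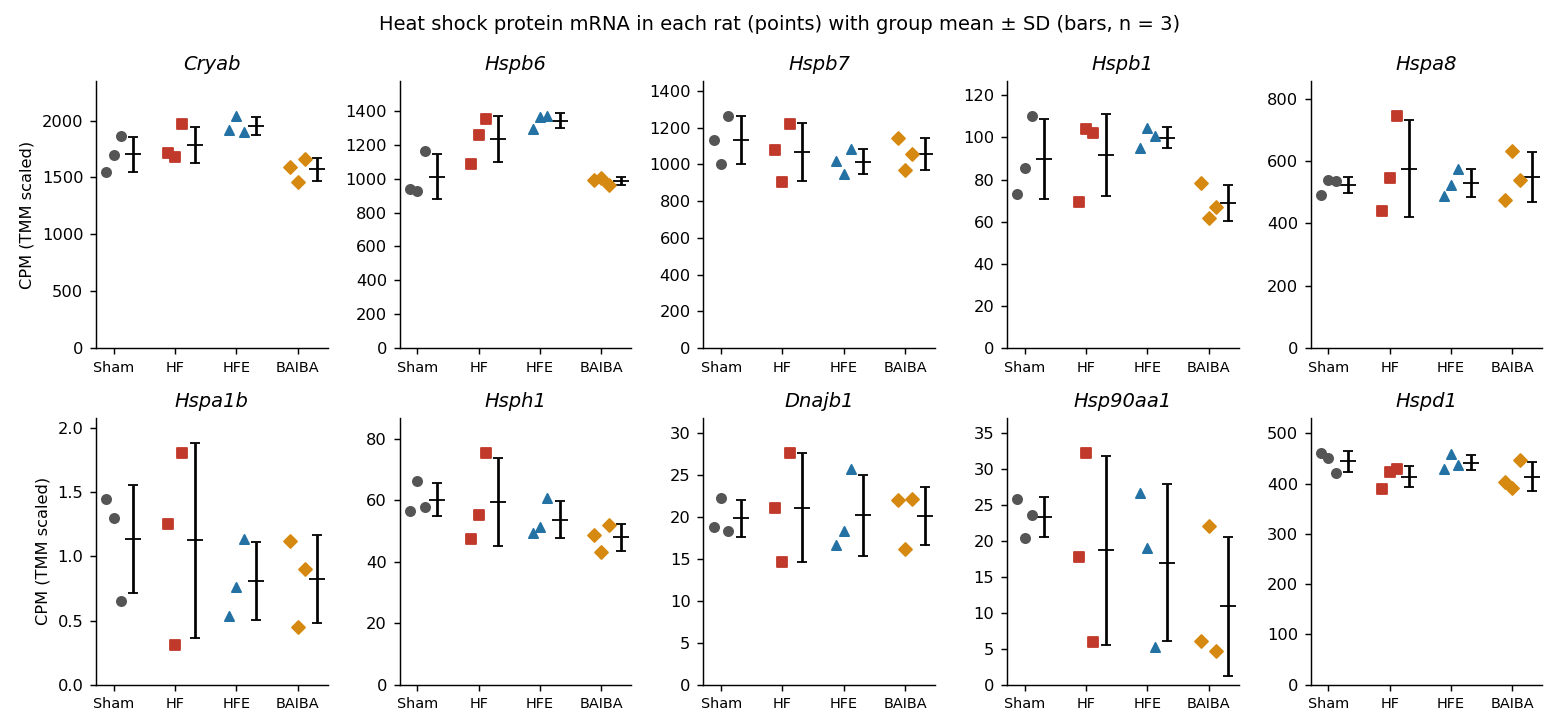
CPM of each heat shock gene in each rat (points) by group, with the group mean ± SD (n = 3) beside the points. In Hspb6 the HFE rats lie at 1293 to 1371 CPM and the BAIBA rats at 961 to 1006 CPM, while in Hsp90aa1 the HF, HFE and BAIBA groups each span a wide range.

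Of the 4 small heat shock proteins, 3 (Hspb6, Hspb1 and Cryab) had their highest group mean after exercise and their lowest after BAIBA, although no difference passed the test. Hspb6 (HSP20), which binds 14-3-3 proteins and is phosphorylated on β-adrenergic stimulation, measured 940, 930 and 1164 CPM in the Sham rats, 1086, 1261 and 1354 in HF, 1293, 1363 and 1371 in HFE, and 993, 1006 and 961 in BAIBA. The 3 HFE rats lay above all Sham and all BAIBA rats, and the 3 BAIBA rats lay below all HF rats, inside the Sham range. Hspb6 was 26.5% lower in BAIBA than in HFE (log2 fold change −0.44, SE 0.08, adjusted p = 0.136 by edgeR's quasi-likelihood test). Against Sham it was 32.8% higher in HFE (log2 fold change 0.41, SE 0.10, edgeR adjusted p = 0.263), and against HF it was 20.03% lower in BAIBA (log2 fold change −0.32, SE 0.12, edgeR adjusted p = 0.852).

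Hspb1, which caps actin filaments and forms large oligomers, measured 73.0, 85.5 and 110 CPM in Sham, 69.4, 104 and 102 in HF, 94.8, 104 and 101 in HFE, and 78.5, 61.8 and 66.9 in BAIBA. Every BAIBA rat lay below every HFE rat, and both Sham and HF reached into each of the other ranges. The difference between BAIBA and HFE was −30.9% (log2 fold change −0.53, SE 0.11, adjusted p = 0.174 by edgeR's quasi-likelihood test). In BAIBA against HF it was −24.7% (log2 fold change −0.41, SE 0.17, edgeR adjusted p = 0.852) and in BAIBA against Sham −22.9% (log2 fold change −0.37, SE 0.17, edgeR adjusted p = 0.68), with overlapping rats in both. Without Sham rat 3 the log2 fold change in BAIBA against Sham was −0.19, and over the fits that each left out 1 rat it ran from −0.50 to −0.19.

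Cryab (αB-crystallin), the desmin-binding small heat shock protein, measured 1550, 1696 and 1860 CPM in Sham, 1714, 1676 and 1967 in HF, 1917, 2041 and 1901 in HFE, and 1591, 1456 and 1663 in BAIBA. The HFE rats again lay above all Sham and all BAIBA rats, and the BAIBA rats lay below all HF rats. Cryab was 19.6% lower in BAIBA than in HFE (log2 fold change −0.31, SE 0.09, edgeR adjusted p = 0.291), 14.7% higher in HFE than in Sham (0.20 on the log2 scale, SE 0.08, edgeR adjusted p = 0.417) and 12.1% lower in BAIBA than in HF (log2 fold change −0.18, SE 0.12, edgeR adjusted p = 0.852). Hspb7, which binds filamin C and is found mainly in heart and skeletal muscle, did not share this pattern of levels. It measured 1135, 1002 and 1264 CPM in Sham, 1080, 902 and 1220 in HF, 1018, 945 and 1082 in HFE, and 1142, 969 and 1056 in BAIBA, and all 4 groups overlapped.

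The test used decided how these differences in BAIBA against HFE were ranked among all genes. With DESeq2 the adjusted p was 0.000195 for Hspb6, 0.00825 for Hspb1 and 0.0795 for Cryab, and 1.41% of all genes had a DESeq2 adjusted p under 0.05. In HFE against Sham the DESeq2 adjusted p of Hspb6 was 0.0432, beside 0.73% of all genes. The fold changes lay under the size limit of 1 in each case, so none of these was a call.

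Other genes of muscle and other cells also differed in level between these groups. Of the 10 cardiomyocyte markers, 5 had an unadjusted p under 0.05 in BAIBA against HFE and 4 were lower in BAIBA with no overlap, beside 9.57% and 15.6% of all genes in either direction, with a median log2 fold change of −0.14 beside 0.0005 over all genes. Actc1, cardiac α-actin, lay at 8099, 8670 and 8403 CPM in HFE and 6211, 5274 and 5139 in BAIBA (edgeR adjusted p = 0.131). Myh6, another of the 5, went the other way, with overlapping rats. It lay at 9127, 11190 and 13240 CPM in HFE and 12180, 18300 and 18110 in BAIBA (log2 fold change 0.54, edgeR adjusted p = 0.438). The summed cardiomyocyte markers nevertheless overlapped, at 48520 to 55780 CPM in HFE and 48450 to 55650 CPM in BAIBA. The 7 macrophage and leukocyte markers summed to 110 to 167 CPM in HFE and 167 to 969 CPM in BAIBA, the 8 fibroblast and scar markers to 1141 to 1595 and 1511 to 2295 CPM, and the 5 erythroid markers to 717 to 827 and 909 to 1301 CPM, with no marker of these 3 lists at 0 in any of these rats. BAIBA rat 1 carried the top of the macrophage and leukocyte range. Its Lyz2 was 762 CPM beside 57.4 and 61.4 in BAIBA rats 2 and 3, and the median sum in BAIBA was 192 CPM. The part of these cell types in the small heat shock protein values was not tested. As no zone is named for the HFE rats, site of sampling and treatment cannot be told apart in BAIBA against HFE if the site differed. Exercise and BAIBA also belong to separate studies in the methods, and this cannot be told apart from treatment either.

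**Figure D3:**
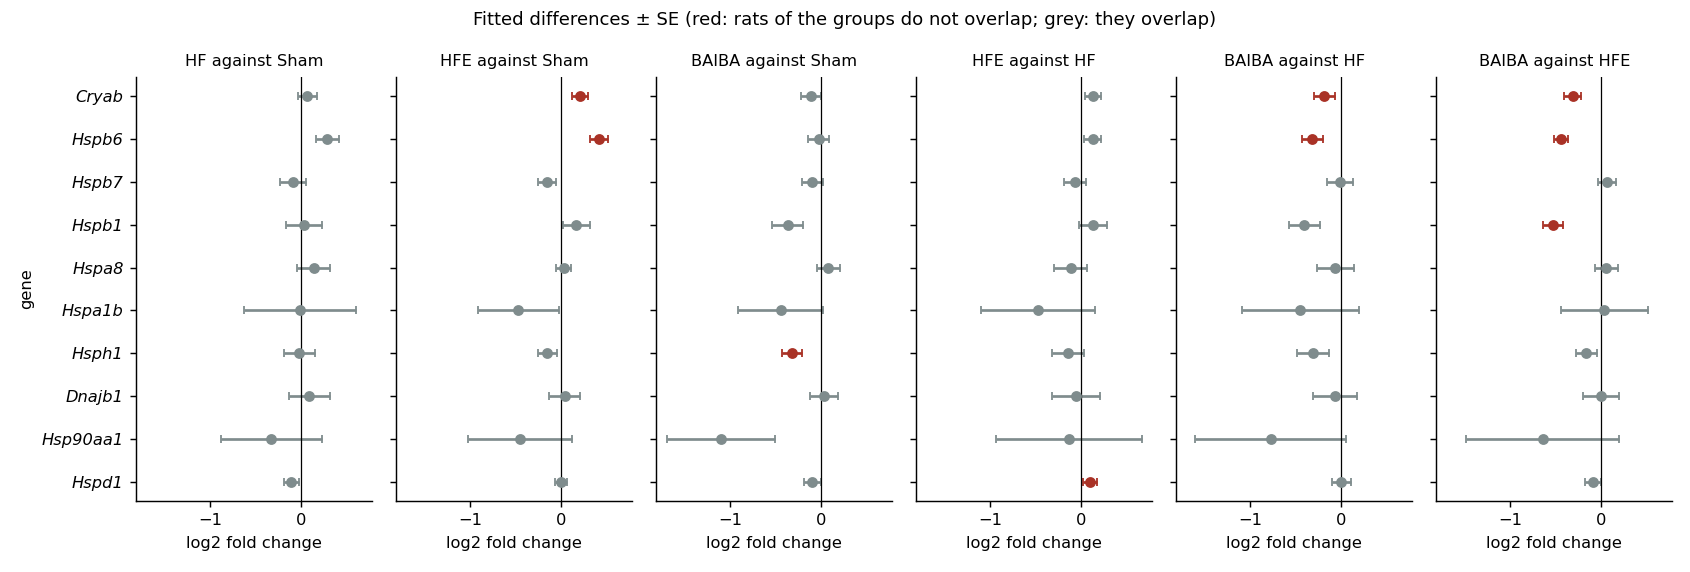
Fitted log2 fold change ± SE of each gene in the 6 comparisons, from edgeR, with red where the rats of both groups do not overlap. The red points are Cryab and Hspb6 in HFE against Sham and in BAIBA against HF, Hsph1 in BAIBA against Sham, Hspd1 in HFE against HF, and Cryab, Hspb6 and Hspb1 in BAIBA against HFE.

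In the HSP70 system, Hspa8, Hspa1b and Dnajb1 overlapped between the groups in all 6 comparisons, and Hsph1 in 5 of 6. Hspa8 measured 493, 540 and 537 CPM in Sham, 439, 545 and 745 in HF, 489, 525 and 576 in HFE, and 475, 634 and 541 in BAIBA. Its highest and lowest values were both HF rats, and its log2 fold changes in the 6 comparisons stayed between −0.12 and 0.14. Processed or near-identical copies could share its reads: RefSeq names 33 pseudogenes for Hspa8, and the gene models LOC680121 and LOC688655, described as similar to it, held 368 to 821 and 133 to 315 counts per rat.

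Hspa1b, which is nearly silent in unstressed tissue, held 5 to 34 counts per rat. It measured 1.45, 1.30 and 0.652 CPM in Sham, 1.26, 0.308 and 1.81 in HF, 0.533, 0.763 and 1.14 in HFE, and 1.12, 0.448 and 0.902 in BAIBA, so the HF rats alone covered the whole range. Its SEs on the log2 scale were 0.44 to 0.64, and its largest log2 fold changes were −0.47 in HFE against Sham, −0.47 in HFE against HF, −0.45 in BAIBA against HF and −0.45 in BAIBA against Sham. Hspa1a, its near-identical neighbour, was listed at 0 or 1 count in each rat. Whether reads common to the pair were assigned to one gene, split or dropped is not given in the sources used here. The split between both genes, the total of the pair and the low level of Hspa1b are therefore uncertain.

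Hsph1 had its lowest mean in the BAIBA group. It measured 56.4, 66.3 and 57.7 CPM in Sham, 47.5, 55.4 and 75.5 in HF, 49.3, 51.2 and 60.7 in HFE, and 48.8, 43.1 and 51.8 in BAIBA. All BAIBA rats lay below all Sham rats, a difference of −20.3% (log2 fold change −0.32, SE 0.11, adjusted p = 0.612 by edgeR's quasi-likelihood test), and the other comparisons overlapped. In BAIBA against HF the log2 fold change was −0.31 (SE 0.17, edgeR adjusted p = 0.852), and −0.10 without HF rat 3 (range −0.44 to −0.10 over the fits that each left out 1 rat).

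Dnajb1 (HSP40), the J-domain partner of cytosolic HSP70, measured 18.9, 22.3 and 18.3 CPM in Sham, 21.1, 14.6 and 27.7 in HF, 16.6, 18.3 and 25.7 in HFE, and 22.1, 16.2 and 22.2 in BAIBA. The 4 group means lay between 19.8 and 21.1 CPM, closer than the rats of any one group.

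Hsp90aa1, the stress-responsive HSP90, varied more between rats than between groups. It measured 25.9, 20.4 and 23.6 CPM in Sham, 17.7, 32.3 and 6.01 in HF, 26.7, 19.0 and 5.23 in HFE, and 6.05, 22.0 and 4.63 in BAIBA. Values fell in 2 separate ranges, with 8 rats at 17.7 to 32.3 CPM and 4 rats at 4.63 to 6.05 CPM, a gap of 2.93-fold. The 4 low rats were 1 of the HF group, 1 of the HFE group and 2 of the BAIBA group. They held 77 to 113 counts against 274 to 523 in the other 8. Its within-group SD of 1.05 on the log2 scale exceeded that of 99.4% of 4951 genes of like level, whose median was 0.188. Gene models described as similar to Hsp90aa1 stayed low in all rats, with 22 to 42 counts for LOC680491 and 2 to 9 for LOC103692716. Hsp90ab1 stayed between 901 and 1274 CPM over the 12 rats.

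The size of the group differences of Hsp90aa1 therefore depended on which rats were included. In BAIBA against Sham its log2 fold change was −1.10 (SE 0.59, adjusted p = 0.759 by edgeR's quasi-likelihood test). It stayed negative, at −2.13 to −0.74, over the fits that each left out 1 rat. Without BAIBA rat 2, the 1 high rat of that group, it was −2.13 with an edgeR adjusted p of 0.0198, a call, in a fit that called 0.105% of all genes. Without HF rat 3 the value in HF against Sham moved from −0.33 to 0.10. In HFE against Sham it was −0.45, in BAIBA against HF −0.77 and in BAIBA against HFE −0.64, each with an SE of 0.57 to 0.84. Leaving out 1 rat at a time moved these to −0.94 to −0.02, −1.80 to −0.13 and −1.66 to −0.16.

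Hspd1, which folds imported proteins in mitochondria together with its lid Hspe1, was the steadiest of the set. It measured 462, 451 and 421 CPM in Sham, 389, 423 and 430 in HF, 430, 458 and 436 in HFE, and 404, 391 and 446 in BAIBA. The HFE rats lay just above the HF rats, at 429.9 CPM for the lowest HFE rat and 429.6 for the highest HF rat, with a log2 fold change of 0.09 (SE 0.08, edgeR adjusted p = 0.754). Its within-group SD was 0.0753 on the log2 scale, above that of 8.33% of 348 genes of like level. Hspe1 (HSP10) stayed between 51.9 and 59.9 CPM in all rats.

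**Figure D4:**
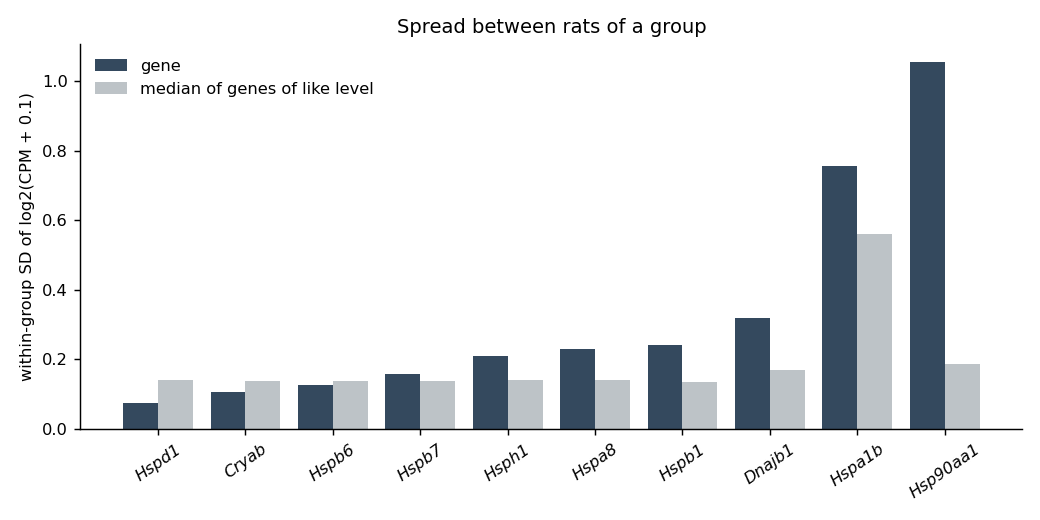
Within-group SD of log2(CPM + 0.1) for each heat shock gene (dark bars) beside the median SD of genes of like level (light bars), from 12 rats with group means removed. Hsp90aa1 stands at 1.05 beside 0.188, and Hspd1, Cryab and Hspb6 lie below the median of their level.

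Co-variation between rats was examined over the 45 pairs of members. With group means removed, none passed a Benjamini-Hochberg adjusted p of 0.05 in the exact test over all permutations of rats within groups. The closest pair that could be summarised over 12 rats was Hspa1b with Dnajb1, at r = 0.90 (exact permutation p = 0.0031, adjusted 0.0694) and rho = 0.87 (exact permutation p = 0.0085, adjusted 0.191). Without HF rat 2 and BAIBA rat 2, the rats farthest from the median of Hspa1b, r was 0.75. Hspb1 with Hspb6 gave r = 0.84 (exact permutation p = 0.0532, adjusted 0.378) and rho = 0.78 (exact permutation p = 0.0602, adjusted 0.371), and r = 0.92 without BAIBA rats 2 and 3.

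With the group means left in, r over 12 rats was 0.86 for Hspa1b with Dnajb1 (permutation p = 0.00029, adjusted 0.0131; rho = 0.83, permutation p = 0.00145, adjusted 0.0653). It was 0.82 for Hspb6 with Cryab (permutation p = 0.00187, adjusted 0.0281; rho = 0.77, permutation p = 0.00486, adjusted 0.0729) and 0.80 for Hspb1 with Cryab (permutation p = 0.0027, adjusted 0.0304; rho = 0.71, permutation p = 0.0128, adjusted 0.144). These p-values come from shuffling rats across the groups, so differences between groups enter into them. Within groups r was 0.59 for Hspb6 with Cryab (exact permutation p = 0.22, adjusted 0.55) and 0.63 for Hspb1 with Cryab (exact permutation p = 0.145, adjusted 0.471). Neither passed the test within groups, where no pair did, which does not show that the correlation is absent.

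Since Hsp90aa1 lay in 2 separate ranges, its pairs were summarised only in the 8 rats of the upper range. There its largest correlation was with Dnajb1, at r = −0.74 (exact permutation p = 0.035, adjusted 0.315 over 9 pairs) and rho = −0.60 (exact permutation p = 0.132, adjusted 0.791). In the 4 rats of low Hsp90aa1, Dnajb1 measured 27.7, 25.7, 22.1 and 22.2 CPM, all among the 5 highest of its 12 values.

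**Figure D5:**
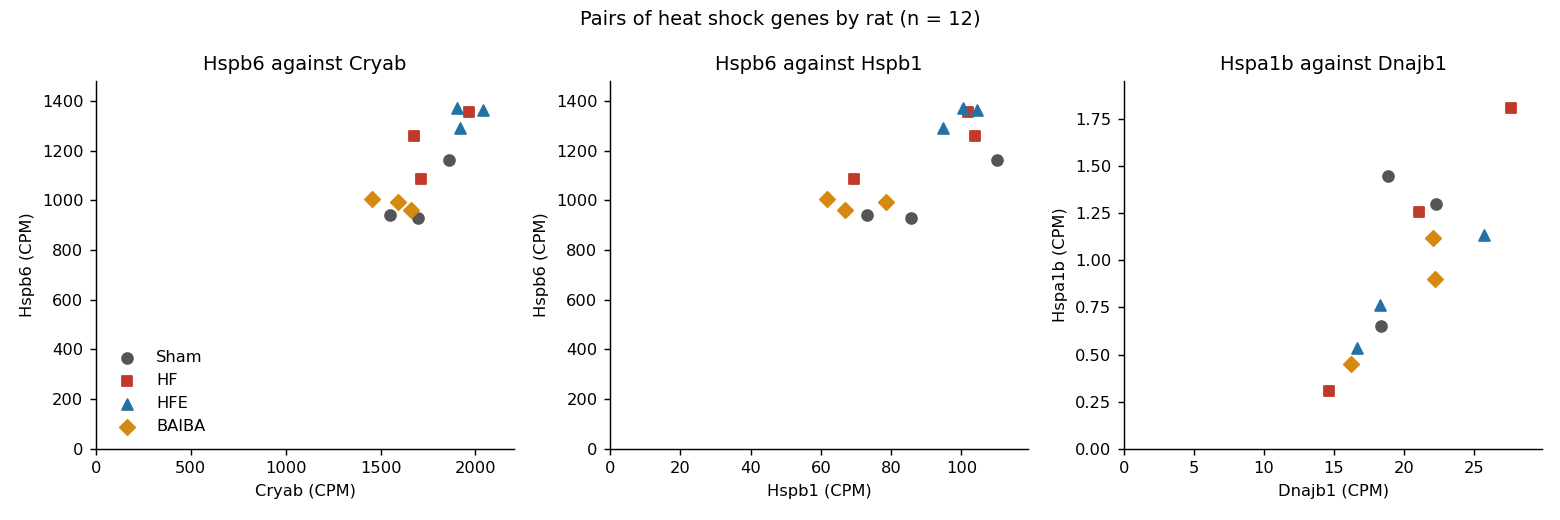
CPM of 3 pairs of heat shock genes, 1 point per rat (n = 12) with colour and shape for the group. HFE rats sit at the upper right and BAIBA rats at the lower left for Hspb6 with Cryab. For Hspa1b with Dnajb1 the groups mix over 14.6 to 27.7 CPM of Dnajb1, and Hspa1b tends to rise with Dnajb1. Sham rats scatter about this trend: rats 1 and 3 had 18.9 and 18.3 CPM of Dnajb1 with 1.45 and 0.652 CPM of Hspa1b.

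Genes outside the set with the most similar profile over the 12 rats were ranked by Pearson r among 14204 genes. For Cryab they were Cox17 (0.94), Ndufa13 (0.94) and Atp5po (0.93), which serve mitochondrial respiration. Hspb1 was closest to Mgst3, a glutathione transferase of membranes (0.91), and Hspb6 to Tuft1 (0.94) and G0s2, an inhibitor of triglyceride lipase (0.92). Hspa8 was closest to Nid1, a basement membrane protein (0.93), Dnajb1 to Thop1, a peptidase (0.97), Hsph1 to Mgrn1, a ubiquitin ligase (0.92), and Hspd1 to Cog5 of the Golgi (0.91). The best match was lower for Hspa1b (Abcg1, 0.87), Hspb7 (Hcn2, 0.86) and Hsp90aa1 (LOC108348201, 0.84). These are the highest of many correlations and carry no test.

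The wider chaperone network gave no call by edgeR. Of 99 genes on 9 lists (other HSP70, HSP90 and small heat shock proteins, J-domain and HSP70 or HSP90 co-chaperones, mitochondrial chaperones, TRiC and prefoldin, heat shock factors and known HSF1 targets), 93 passed the filter, and edgeR called none between any 2 groups, while DESeq2 called 1, Fkbp5 in BAIBA against HFE, where it called 0.73% of all genes. At an unadjusted p under 0.05 they numbered 3 in HF against Sham, 17 in HFE against Sham, 6 in BAIBA against Sham, 12 in HFE against HF, 2 in BAIBA against HF and 8 in BAIBA against HFE. In the same order that is 3.23%, 18.3%, 6.45%, 12.9%, 2.15% and 8.6% of those tested, beside 6.0%, 11.2%, 7.41%, 7.62%, 5.55% and 9.57% of all genes. Rats of the groups did not overlap for 11, 24, 18, 19, 7 and 15 of them. That is 11.8%, 25.8%, 19.35%, 20.4%, 7.53% and 16.1% of those tested, beside 11.7%, 17.8%, 12.7%, 14.3%, 11.4% and 15.6% of all genes. Of the 24 in HFE against Sham, 18 were higher and 6 lower, beside 1402 and 1237 of all genes. Of the 19 in HFE against HF, 16 were higher and 3 lower, beside 1216 and 927. Of the 15 in BAIBA against HFE, 2 were higher and 13 lower, beside 1083 and 1230. Their median log2 fold change lay between −0.04 and 0.04 in the 6 comparisons. Over the 4 groups DESeq2's likelihood ratio test called Hspa5 (adjusted p = 0.000871) and Fkbp5 (adjusted p = 0.00275) among them, beside 1.35% of all genes.

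Among the other small heat shock proteins, 4 of 7 passed the filter and none was called. Hspb8, the partner of Bag3 in chaperone-assisted autophagy, averaged 333 ± 2.25 CPM in Sham, 305 ± 14.8 in HF, 307 ± 7.59 in HFE and 346 ± 38.2 in BAIBA (SD, n = 3). Every HF rat and every HFE rat lay below every Sham rat in Hspb8. Its log2 fold change was −0.13 in HF against Sham (SE 0.08, edgeR adjusted p = 0.82) and −0.11 in HFE against Sham (SE 0.06, edgeR adjusted p = 0.53). Hspb2 lay at 49.1 to 73.0 CPM over all rats, with every HFE rat above every HF rat (log2 fold change 0.27, SE 0.11, edgeR adjusted p = 0.648). Hspb3 was 23.0, 18.7 and 18.4 CPM in Sham, 21.3, 24.9 and 22.2 in HF, 29.2, 36.2 and 24.2 in HFE, and 24.3, 15.9 and 11.4 in BAIBA, highest in HFE as for Hspb6 and Cryab, with an edgeR adjusted p of 0.297 in HFE against Sham.

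Of the other HSP70 proteins, 11 of 12 passed the filter. Hspa5 (BiP), the HSP70 of the endoplasmic reticulum, measured 318, 351 and 309 CPM in Sham, 261, 288 and 317 in HF, 394, 464 and 386 in HFE, and 301, 332 and 303 in BAIBA, so every HFE rat lay above every other rat. Its log2 fold change in HFE against HF was 0.53 (SE 0.11), with an adjusted p of 0.627 by edgeR's quasi-likelihood test and 0.0131 by DESeq2. Hspa9, the mitochondrial HSP70, lay lower in HFE than in Sham with no overlap (log2 fold change −0.31, SE 0.08, edgeR adjusted p = 0.292), and likewise lower in BAIBA than in Sham with no overlap (log2 fold change −0.33, SE 0.14, edgeR adjusted p = 0.657).

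Among the co-chaperones, Fkbp5, an HSP90-binding immunophilin induced by glucocorticoids, stood at 32.2, 31.7 and 50.9 CPM in Sham, 45.2, 38.0 and 65.0 in HF, 24.2, 20.9 and 35.9 in HFE, and 54.5, 69.1 and 73.0 in BAIBA. BAIBA and HFE did not overlap (log2 fold change 1.28, SE 0.21, adjusted p = 0.131 by edgeR's quasi-likelihood test and 3.04e-06 by DESeq2). Bag3, which links HSP70 to Hspb8, stayed between 211 and 252 CPM in all rats. The heat shock factor Hsf1 lay at 20.9 to 29.0 CPM and Hsf2 at 19.7 to 32.6 CPM. None of the 4 genes tested of this list (Hsf1, Hsf2, Hsf4 and the binding protein Hsbp1) had non-overlapping groups in any comparison, beside 11.4% to 17.8% of all genes. Hsf1 had an unadjusted p of 0.034 by edgeR in HFE against Sham (log2 fold change 0.27, SE 0.11, adjusted p = 0.4), where 11.2% of all genes had a p under 0.05. Of 17 known HSF1 targets outside the set, 16 passed the filter, and the number at an unadjusted p under 0.05 was 0 or 1 in each comparison.

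Signs of handling were read from lists of genes that respond within minutes to hours. The 12 immediate early genes summed to 263 to 298 CPM in Sham, 239 to 597 in HF, 291 to 1920 in HFE and 267 to 344 in BAIBA. Their median log2 fold change was 1.60 in HFE against Sham and −1.70 in BAIBA against HFE. HFE rat 3 carried these medians: the HFE sums were 291, 362 and 1920 CPM, and without that rat the medians were 0.14 and −0.14. None of the 12 was called between any 2 groups by edgeR, nor by DESeq2 where it gave an adjusted p. DESeq2 gave none for Egr1 or Nr4a1 in HFE against Sham and BAIBA against HFE, nor for Fos in BAIBA against HFE. Over the 4 groups DESeq2's likelihood ratio test called Fosb (adjusted p = 0.0203) and Nr4a1 (adjusted p = 0.023), beside 1.35% of all genes. The cold-inducible Cirbp and Rbm3 summed to 101 to 163 CPM over all rats. Of 12 clock genes, which follow the hour of collection, 6 had an unadjusted p under 0.05 in BAIBA against HFE, beside 9.57% of all genes, and edgeR called none. DESeq2 called Arntl (log2 fold change −2.21, adjusted p = 0.00098) and Npas2 (−1.86, adjusted p = 0.0011) in BAIBA against HFE. It also called both in HFE against Sham (1.61 and 1.63, DESeq2 adjusted p = 0.0439 and 0.0082), where it called 0.313% of all genes, and Arntl in BAIBA against HF (−1.82, DESeq2 adjusted p = 0.00212), where it called 0.123%. The part of handling or hour in the heat shock values was not tested. The other lists, the 7 client and Z-disc partners, the 5 adipocyte, 4 atrial, 4 smooth muscle and 5 endothelial marker genes found, held no gene called by edgeR in any comparison. DESeq2 called the atrial genes Myl7 (log2 fold change −5.86, adjusted p = 1.41e-28) and Sln (−2.66, adjusted p = 0.0465) in BAIBA against Sham, where it called 0.334% of all genes, Myl7 in BAIBA against HF (−4.07, DESeq2 adjusted p = 0.0151) and the adipocyte gene Cidec in BAIBA against HFE (4.87, DESeq2 adjusted p = 0.0284). Among the macrophage, fibroblast and erythroid markers above, edgeR called none, whereas DESeq2 called Cd163 and Mrc1 in BAIBA against HFE, Fn1 and Lyz2 in HFE against Sham and Hbb in BAIBA against Sham.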

How the data were processed

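Messenger RNA of 12 rat hearts, 4 groups of 3 by the labels, was sequenced as paired ends. The authors deposited gene counts (featureCounts) and FPKM, after alignment with HISAT2 per the labels. The labels' processing notes name the build mm9, a mouse build, while the gene identifiers are rat Ensembl ones; tool versions and the handling of reads shared by near-identical genes are not given in the sources used here. The deposited FPKM was used only to compare levels between genes.

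Counts were tested with edgeR 4.0.16 (R 4.3.3): TMM scaling, filterByExpr, robust quasi-likelihood F tests on each pair of groups, and 1 test over all 4. DESeq2 1.42.0 was an alternative. CPM values carry TMM factors of all 12 rats, and log values use CPM + 0.1. Pairs of genes were tested by permutation of rats within groups. Scripts were tested on simulated data. Depth was 14812541 to 19732588 counts per rat. The genes of the set and all lists were chosen with earlier results of these data known. Named genes outside the set were 8 chosen ones, any list gene called, the 3 of each list with the widest range of group means, and the 3 most similar genes per member; from these, examples are given, and fold changes were printed where p was under 0.05 before adjustment, rats did not overlap, or the size was over 0.3. Nothing says whether rats shared cages, batches or sequencing runs, so p-values measure the spread between these rats. Numbers in the labels do not name shared animals. Deviations of same-numbered rats were weakly correlated in BAIBA against HFE (r = 0.12 to 0.23, all above 0.1). In the other comparisons the mean r lay between −0.02 and 0.03, with single values up to 0.12. These correlations carry no test.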

Additional observations from a re-analysis of the deposited data

How the results depend on the processing

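All 60 member fold changes were recomputed under library-size or RLE scaling, no low-count filter, a fit of all 12 rats, DESeq2, a replicate block and without each rat, 720 values in all. The sign changed in 67 of them, for 30 fold changes; only 8 of the 67, for 6 fold changes of at most 0.04 in size, came from settings other than leaving out a rat. Of the 21 fold changes printed above, 3 changed sign, each without HF rat 3. Over the fits that each left out 1 rat, the log2 fold change of Hsp90aa1 in HF against Sham spanned −0.98 to 0.10, that of Hspa1b in HFE against HF −0.91 to 0.0395 and that of Hspa1b in BAIBA against HF −0.89 to 0.0671. The number of members called went from 0 to 1 without BAIBA rat 2 in BAIBA against Sham (range 0 to 1, Hsp90aa1) and to 1 with DESeq2 over the 4 groups (Hspb6). With the limit on fold size dropped and DESeq2, an alternative chosen after seeing the data, it was 1 in HFE against Sham and 2 in BAIBA against HFE. Correlated pairs numbered 0 within groups and 4 over raw values of 12 rats, of which 1 involves Hsp90aa1 and is not summarised for its separate ranges.

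With the replicate number as a replicate block, 0 members were called in every comparison. In BAIBA against HFE, where deviations of same-numbered rats were weakly correlated (r = 0.12 to 0.23, not tested), Hspb6 stood at −0.44 (edgeR adjusted p = 0.0907), Hspb1 at −0.54 (0.132) and Cryab at −0.31 (0.239). The block changed no call. Over its alternatives the adjusted p of Hspb6 in BAIBA against HFE ran from 0.000195 to 0.495, that of Hspb1 from 0.00825 to 0.53 and that of Cryab from 0.0795 to 0.765. With 3 rats a group and 5 to 34 counts, the SEs of Hspa1b were 0.44 to 0.64 on the log2 scale. Changes of that size, and moderately larger ones, could go undetected at this depth.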
